A study of Mus musculus with 39 samples.

Results

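Leukaemias formed by miR-126 knockout cells that carried the fusion protein AE9a were compared with normal control marrow at the first passage through mice. The samples were chosen by their titles: 3 knockout leukaemias of passage 1 and 3 normal controls, which are 6 of the 39 arrays of the series. All 22180 genes with a probe set of their own were tested. The series also holds AE9a leukaemias with miR-126 left alone and AE9a leukaemias with miR-126 added, each over passages 1 to 4, with 3 mice per group and passage.

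The 3 knockout leukaemias are labelled miR-126KO+AE9a, first passage, and the 3 controls are labelled Normal Control. Every mouse was a bone marrow transplant recipient, and the donor-derived cells were sorted from marrow by the CD45.1 surface form before RNA was taken, so both groups share transplantation and sorting. The leukaemias were collected at the end stage of disease. The control cells carry neither the fusion nor the knockout, so effects of AE9a, of the missing miR-126 and of the disease stage cannot be told apart in this comparison. The way in which miR-126 was deleted, the vector that carried AE9a, and the strain, sex and age of the mice were not stated in the sources used here. The donor behind each recipient is not labelled, so each p-value covers only variation among recipient mice. That variation was taken from the spread within groups over all arrays of the series, not from the knockout and control mice alone.

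AE9a is a truncated splice form of AML1-ETO, the fusion of the t(8;21) chromosome translocation in acute myeloid leukaemia. It joins the DNA-binding part of RUNX1, a master regulator of blood cell formation, to a stretch of the corepressor ETO, which Runx1t1 encodes. The microRNA miR-126 lies in an intron of Egfl7, an endothelial gene, and in blood it is best known from stem cells and from core-binding-factor leukaemias. Type I interferons bind a shared receptor and induce antiviral genes, many of which carry the interferon-stimulated response element in their promoters.

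The mature sequence of miR-126 is shown because it is the deleted molecule, and its seed, bases 2 to 8, stands in capitals. The 250 bases before the gene's start are shown for Cxcl10, Oas1g and Ifit1, the 3 members of the list of type I interferon induced genes that rose with the smallest adjusted p-values and have a RefSeq promoter window. Sequences are RefSeq's, on build GRCm38.p6, 5′ to 3′ on the gene's strand. Capitals in the promoters mark the letters GAAANNGAA, the core of the response element, on either strand. The microRNA lies at chr2:26591402-26591423 (+), and the promoters lie at chr5:92348890-92349139 (-), chr5:120887614-120887863 (-) and chr19:34640639-34640888 (+).
mmu-miR-126a-3p: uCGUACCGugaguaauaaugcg
Cxcl10 promoter: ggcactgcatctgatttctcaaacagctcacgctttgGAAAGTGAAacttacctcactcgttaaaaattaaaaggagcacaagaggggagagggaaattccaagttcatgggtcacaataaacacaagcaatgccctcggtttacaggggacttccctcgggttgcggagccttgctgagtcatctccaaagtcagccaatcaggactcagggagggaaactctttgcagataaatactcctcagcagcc
Oas1g promoter: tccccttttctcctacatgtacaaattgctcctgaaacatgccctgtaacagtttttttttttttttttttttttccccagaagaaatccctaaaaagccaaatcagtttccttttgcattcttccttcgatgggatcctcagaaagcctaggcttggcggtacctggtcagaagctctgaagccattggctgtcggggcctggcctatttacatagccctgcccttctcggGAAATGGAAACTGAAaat
Ifit1 promoter: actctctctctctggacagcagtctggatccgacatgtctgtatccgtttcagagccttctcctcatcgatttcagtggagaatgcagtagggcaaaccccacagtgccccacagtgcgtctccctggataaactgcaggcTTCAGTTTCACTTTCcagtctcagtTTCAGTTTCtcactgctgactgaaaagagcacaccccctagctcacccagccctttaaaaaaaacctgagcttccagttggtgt

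The Cxcl10 window held 1 match, which began 213 bases before the gene's start. The Oas1g window held 2 matches that overlap each other, 18 and 12 bases before the start, and the Ifit1 window held 3 on the opposite strand, 109, 103 and 84 bases before the start, of which 2 overlap. In RefSeq windows of 300 bases (250 before to 50 after the start), the letters GAAANNGAA stood in 2638 of 27025 genes (9.76%). Of the 38 type I interferon induced genes measured, 28 had such a window, and 16 of these 28 (57.1%) held the letters. A match is a description of letters and not a mapped binding site.

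Expression is given on the log2 scale, on which a difference of 1 means a 2-fold change of signal. A gene passed when its adjusted p, from limma over all 22180 genes with Benjamini-Hochberg adjustment, was under 0.05; "rose" and "fell" are used of such genes alone. Against normal controls 2393 genes passed, or 10.8%. A ± after a difference is its standard error. Per-mouse values are given for knockout mice 1, 2 and 3 and then for control mice 1, 2 and 3. Of the 317 genes named by rule, 214 passed against normal controls, and 147 of these also passed in each of the 6 fits that left out 1 of the 6 arrays. Where 1 of the other 67 is said to have risen or fallen against normal controls, its call is given as not held without each array.

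The arrays were close in scale: the SD over probe sets was 1.96 to 2.01 in the knockout leukaemias and 1.87 to 2.08 in the controls, and correlations within a group were 0.979 to 0.99 and 0.971 to 0.988. Knockout mouse 3 stood apart from its group in 2 ways. Xist, the RNA that silences an X chromosome in females, read 11.31, 11.45 and 5.37 in the knockout mice, against 6.52, 10.96 and 10.99 in the controls. The Y-linked Eif2s3y read 4.02, 4.16 and 8.68 in knockout mice, against 9.29, 8.45 and 7.53 in controls, so control mice 2 and 3 were high for both genes. Its neutrophil granule genes were also nearer to the controls, with a mean over the list of 8.85, 8.41 and 10.35 in knockout mice, against 10.79, 10.91 and 10.54 in controls. Counts of 3 or more list members against normal controls are given below without any mouse, of either group, whose omission moved them by over 1.5 times.

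**Figure D1:**
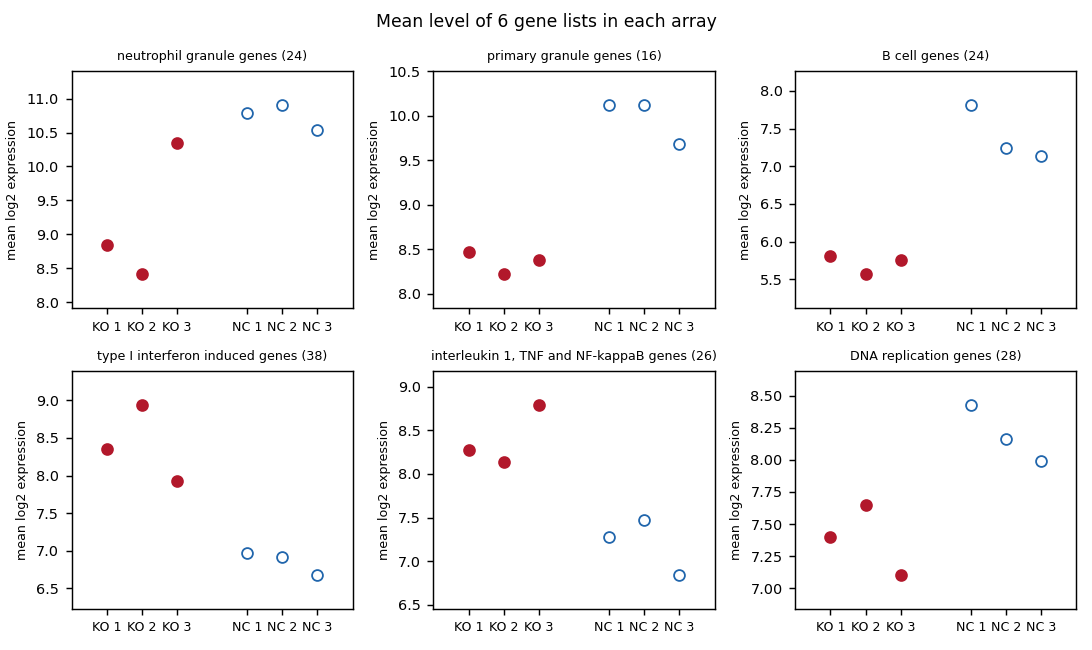
Mean log2 expression of 6 gene lists in each of the 6 arrays, with knockout leukaemias (filled) left of normal controls (open); the vertical axes differ between panels and do not start at 0. Knockout mouse 3 lies between its group and the controls for neutrophil granule genes and near its group for the B cell and primary granule genes.

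Markers of 12 cell types, 5 genes each where measured, were read as a check of the sorted cells. The monocyte markers averaged 10.82, 10.55 and 10.55 in knockout mice, against 10.25, 10.17 and 10.42 in controls, and 0 of 5 passed; general haematopoietic markers also had 0 of 5 past the threshold. Neutrophil markers averaged 9.43 and 10.96 in knockout mice 1 and 3 and were lowest in mouse 2, against 12.02, 12.07 and 11.92 in controls, with 4 of 5 lower. B cell markers averaged 6.44, 5.77 and 6.36 against 9.07, 8.36 and 8.19, with 4 of 4 lower. T cell markers were lower in 2 of 3, NK markers in 3 of 5, stem cell markers in 4 of 5, and erythroid, megakaryocyte, and mast cell and basophil markers in 2 of 4, 2 of 4 and 2 of 5. Macrophage markers and stroma and endothelium markers were each lower in 1 of 5. Among the lower markers that are also genes named by rule, the calls of Ltf, Cd3g and Pf4 were not held without each array. The other lower markers, such as Camp, Mmp8, Cd3e, Kit and Klf1, were not followed in those fits. The sorted controls thus held marker RNA of several lineages at higher levels, and in bulk RNA fewer cells of a type and less RNA per cell cannot be told apart. The part of cell make-up in the gene differences below was not tested.

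The locus of the deleted microRNA was read through a probe set that the annotation assigns to both Mir126a and Egfl7. It lay near the bottom of the scale in every mouse, at 2.86, 2.96 and 2.96 in knockout leukaemias, against 2.97, 3.04 and 3.88 in controls (-0.37 ± 0.51, adjusted p = 0.738 over all probe sets), so it cannot check the knockout. Egfl7, the host gene, read 5.29, 5.26 and 5.61 in knockout mice and 5.90, 6.01 and 6.35 in controls. The groups did not overlap, and Egfl7 fell by 0.70 ± 0.21 (limma adjusted p = 0.0302), a call not held without each array (limma adjusted p up to 0.152). Runx1 read 10.29, 10.32 and 10.41 in knockout mice, against 9.35, 9.22 and 9.20 in controls, and rose by 1.08 ± 0.25 (adjusted p = 0.00314). Whether its probes also read the fusion transcript, which holds part of RUNX1, cannot be said from the array. Runx1t1 differed by 0.20 ± 0.20 (adjusted p = 0.613). Runx1 was the single gene of the 6 runt and ETO family genes to pass.

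Of the 2393 genes that passed against normal controls, 1083 were higher (4.88% of all genes) and 1310 lower (5.91%) in the knockout leukaemias. The balance turned in 3 alternatives: 3077 higher and 3022 lower with array weights, 2136 higher and 2096 lower with array spread as a covariate, and 829 higher and 686 lower without knockout mouse 3 and control mouse 1. At least a 2-fold difference was seen in 1473. The median difference of all genes was 0.02, and 4920 genes had an unadjusted p under 0.05. In 2341 of the 2393 the 3 mice of one group lay above all 3 of the other. Over all genes, every knockout mouse was above every control for 16.9% and below for 14.4%. The total was 1518 without knockout mouse 2 and 1586 without knockout mouse 1.

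The 14 largest rises ran from 25.1- to 48.7-fold. Mmp13, a collagen-degrading protease, read 9.58, 9.93 and 9.80 in knockout mice, against 4.11, 3.99 and 4.39 in controls, a difference of 5.61 ± 0.72 (48.7-fold, adjusted p = 2.54e-06). Emp1, a membrane protein of epithelial cells, read 11.97, 12.01 and 11.61 against 6.28, 6.02 and 7.32 (40.0-fold, adjusted p = 6.82e-08). Serpinb8, an intracellular inhibitor of serine proteases, read 9.87, 9.62 and 9.37 against 4.57, 4.28 and 4.56 (35.6-fold, adjusted p = 1.47e-08). For these 3 genes the knockout mice lay close together and far above every control.

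Havcr2, which encodes the checkpoint receptor TIM-3, read 10.03, 10.55 and 10.17 in knockout leukaemias, against 5.40, 4.73 and 5.84 in controls (30.5-fold, adjusted p = 1.41e-07). Flrt3, a leucine-rich repeat adhesion protein, read 8.64, 8.72 and 8.48 against 3.51, 3.65 and 3.90 (30.4-fold, adjusted p = 1.83e-06). Tph1, the first enzyme of serotonin synthesis outside the brain, read 9.27, 9.01 and 9.99 against 4.32, 4.78 and 4.70 (28.3-fold, adjusted p = 8.26e-06). The groups did not overlap for any of the 14 largest rises, a condition of the rule that chose them.

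The rest of the 14 were the cytokine Il1a (44.0-fold), the endocytic adaptor Dab2 (33.9-fold), the chemokine Cxcl10 (33.1-fold), Tnip3, which restrains NF-κB (28.1-fold), the growth factor Pgf (27.2-fold), the acute-phase gene Saa3 (27.1-fold), Plet1 (25.2-fold) and the p200-family gene Ifi205 (25.1-fold), with adjusted p-values from 1.18e-09 to 6.06e-05. Saa3 was the most uneven of them, at 11.14, 9.12 and 11.37 in knockout mice, against 5.58, 5.75 and 6.03 in controls.

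The 14 largest falls had differences of -3.32 to -4.17. Mcpt8, a basophil protease, read 5.24, 4.49 and 6.23 in knockout mice, against 9.79, 9.18 and 9.44 in controls (-4.15 ± 0.50, 17.7-fold lower, adjusted p = 9.2e-07). Prss34, another basophil and mast cell protease, read 5.34, 4.87 and 6.18 against 8.74, 9.24 and 8.39 (-3.33 ± 0.26, adjusted p = 6.47e-10). Slc40a1, the iron exporter ferroportin, read 4.94, 4.68 and 6.99 against 9.69, 9.36 and 8.93 (13.8-fold lower, adjusted p = 0.000771). In each of these knockout mouse 3 was the highest of its group and still below every control.

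Ncam1, the adhesion molecule CD56, read 5.21, 4.70 and 5.42 in knockout mice, against 8.93, 8.84 and 8.09 in controls (11.4-fold lower, adjusted p = 1.98e-06). Fcnb, a ficolin of immature granulocytes, read 7.96, 7.11 and 7.28 against 11.15, 11.11 and 10.17 (10.3-fold lower, adjusted p = 2.81e-05). Atp1b1, a subunit of the sodium pump, read 5.69, 5.78 and 5.50 against 9.33, 8.48 and 9.11 (9.98-fold lower, adjusted p = 1.69e-05). The remaining members of the 14 were Ly6g, Slco4c1, Mmp9, Spib, Scrg1, Chil5, Itgb2l and Rflnb. Mmp9 was not held without each array (adjusted p = 0.0502 without knockout mouse 2).

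**Figure D2:**
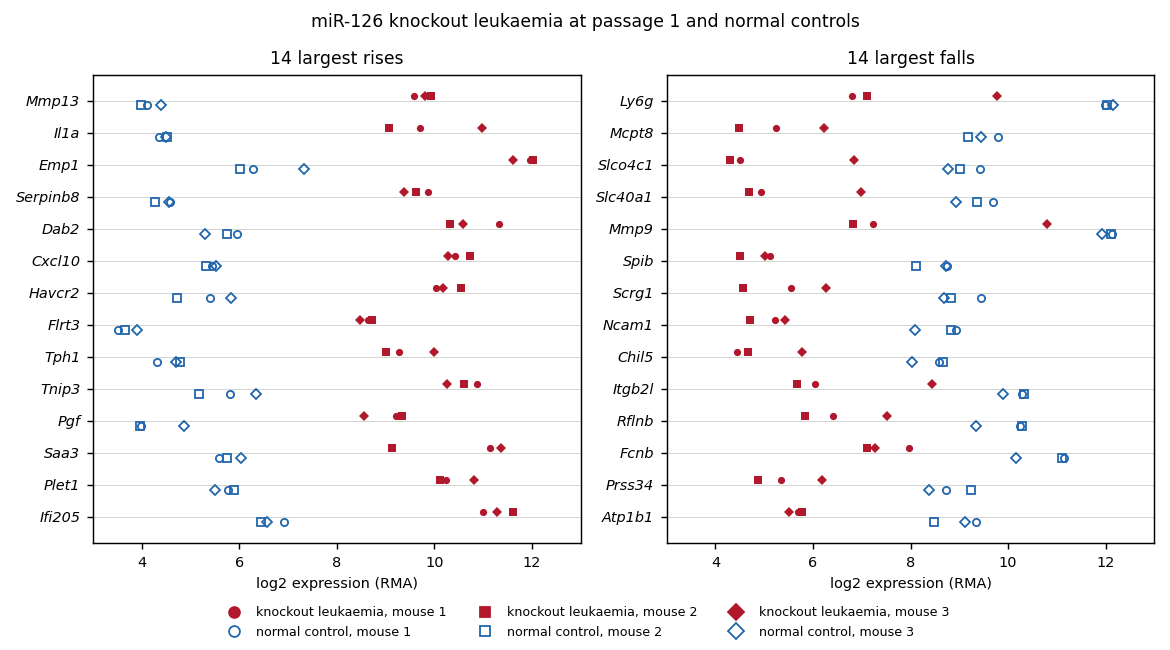
Log2 expression of the 14 largest rises (left panel) and 14 largest falls (right panel) against normal controls, 1 point per mouse, knockout leukaemias filled and normal controls open. The 3 knockout mice lie on one side of all 3 controls for each gene; among the falls, 1 knockout mouse often lies nearer to the controls, as for Ly6g at 9.78 against 6.79 and 7.10.

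Gene lists were described by how many measured members passed in each direction. The lists with the most members higher were type I interferon induced genes, interleukin 1, TNF and NF-κB genes, and extracellular proteases and matrix genes. Those with the most members lower were B cell genes, neutrophil granule genes and, alike, T cell genes and stem and progenitor genes.

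**Figure D3:**
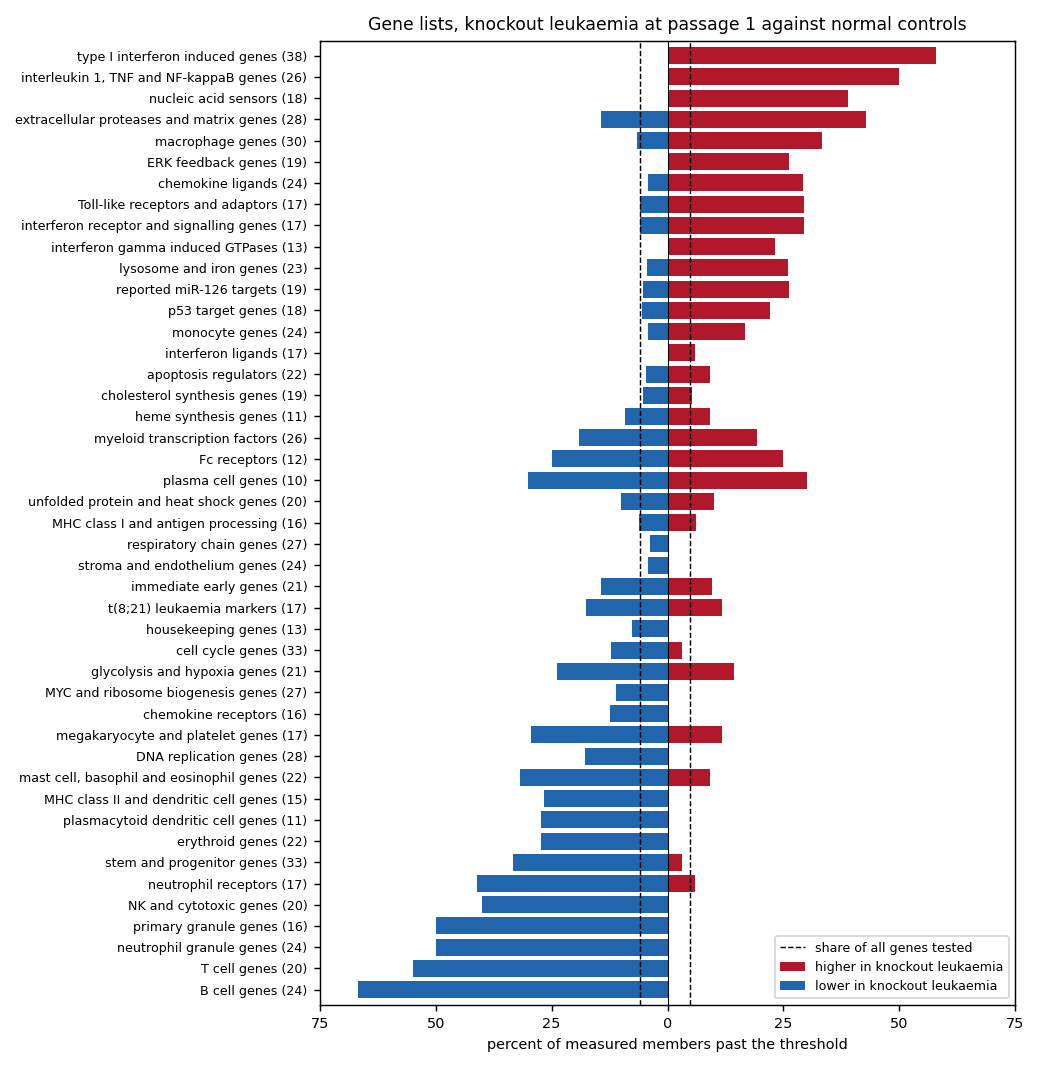
Share of each list's measured members that passed higher (to the right) or lower (to the left) in knockout leukaemias than in normal controls, with dashed lines at the shares of all genes, 4.88% and 5.91%. Interferon, NF-κB and protease lists extend right and B cell, T cell and granule lists extend left.

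Genes induced by type I interferon had more rises than any other list: 22 of 38 rose and 0 fell, with a median difference of 1.16. Of the members that rose, 14 had a RefSeq promoter window and 8 of these (57.1%) held the letters GAAANNGAA. This is the same share as among all 28 measured members with a window, which include these 14. Members without a window could not be read, and a link between the letters and the rise was not tested. Of the antiviral effectors, Oas1g, an activator of RNase L, read 9.59, 10.39 and 7.88 in knockout mice, against 4.33, 4.18 and 5.42 in controls (4.64 ± 0.62, adjusted p = 5.39e-06). Oasl1, which dampens translation of Irf7, read 9.62, 10.47 and 10.25 against 6.91, 6.53 and 6.71 (3.40 ± 0.58, adjusted p = 0.000136). Mx1, a dynamin-like GTPase that blocks influenza virus, read 7.48, 8.27 and 6.28 against a control mean of 5.17 ± 0.22 (SD, n = 3), a difference of 2.17 ± 0.37 (limma adjusted p = 0.000133). Knockout mouse 2 was highest in each, and the lowest knockout mouse was above the highest control.

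The other 2 genes whose promoters are printed also lay apart from every control. Cxcl10, a chemokine that draws T cells, read 10.42, 10.73 and 10.29 in knockout leukaemias, against 5.45, 5.33 and 5.52 in controls (5.05 ± 0.57, limma adjusted p = 3.54e-07). Ifit1, which binds viral RNA, read 10.13, 10.83 and 10.07 in knockout leukaemias, against 6.22, 5.92 and 6.25 in controls (4.22 ± 0.69, limma adjusted p = 8.71e-05). Further effectors that rose were the GTPase Mx2 (3.16 ± 0.39, adjusted p = 1.28e-06), Rsad2, which encodes viperin (2.65 ± 0.64), Ifit1bl1 (2.57 ± 0.51), Slfn5 (1.85 ± 0.43), the poly-ADP-ribose polymerase Parp14 (1.87 ± 0.40), Phf11d (1.83 ± 0.34), Xaf1 (1.75 ± 0.32) and Ifi35 (1.61 ± 0.30), those after Mx2 with adjusted p-values from 0.000369 to 0.00541. The calls of Slfn8, Parp9, Ifih1, Herc6, Oas2, Rtp4, Zbp1 and Irf7, with differences of 1.02 to 1.77, were not held without each array, Irf7 reaching an adjusted p of 0.285. Members that missed the threshold included Isg15 (0.63, adjusted p = 0.104), Ifit3 (0.66, adjusted p = 0.166), Oas3 (0.60, adjusted p = 0.37) and Cmpk2 (0.22, adjusted p = 0.799). Cmpk2, a mitochondrial nucleotide kinase, overlapped between the groups, at 9.46, 10.13 and 9.37 in knockout mice and 9.61, 9.45 and 9.23 in controls. The list's count was 14 without knockout mouse 2 and 25 without knockout mouse 3.

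Few of the interferon genes themselves passed. Of 17 ligand genes 1 rose and 0 fell, with a median difference of 0.09: Ifna14 read 5.78, 5.93 and 5.97 in knockout mice, against 5.24, 5.29 and 4.91 in controls (0.75 ± 0.20, adjusted p = 0.0126), which was not held without control mouse 3 (adjusted p = 0.078). Ifnb1 read 3.11, 4.28 and 3.92 against 3.37, 3.15 and 3.51 (adjusted p = 0.206), near the bottom of the scale. Ifng differed by -0.24 ± 0.21 (adjusted p = 0.568). The interferon alpha genes are near-identical copies, so their probe sets may share signal.

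Among 17 receptor and signalling genes 5 rose and 1 fell, with 3 higher without knockout mouse 1. Jak2, a kinase that serves the interferon gamma receptor and many cytokine receptors, read 11.08, 11.04 and 11.23 in knockout leukaemias, against 9.81, 9.58 and 9.42 in controls (1.52 ± 0.22, adjusted p = 1.83e-05). Both feedback inhibitors of JAK kinases were higher: Socs3 read 9.74, 9.84 and 9.74 against 6.50, 7.96 and 7.54 (2.44 ± 0.39, adjusted p = 7.01e-05). Socs1 read 7.90, 8.90 and 7.70 against 6.42, 6.49 and 6.50 (1.70 ± 0.28, adjusted p = 8.76e-05). Usp18, which removes ISG15 and blocks the receptor, rose by 2.93 ± 0.48, and no group overlapped for these 4 genes. Rises of Stat2 and Ifnar1 and the fall of Irf8, a transcription factor of monocytes and dendritic cells, were not held without each array. Jak1, Tyk2, Stat3, Irf1, Irf2, Irf3, Irf9, Ifnar2, Ifngr1 and Ifngr2 did not pass.

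Of 13 GTPases induced by interferon gamma, 3 rose and 0 fell (median 0.54), and 1 rose without knockout mouse 1, knockout mouse 2, control mouse 2 or control mouse 3. Gbp5, a guanylate-binding protein that promotes inflammasome assembly, read 7.24, 8.01 and 7.25 in knockout mice, against 4.74, 4.80 and 5.16 in controls (2.60 ± 0.47, adjusted p = 0.000267). The rises of Irgm1 and Gbp7 were not held without each array. Of 18 nucleic acid sensors and adaptors 7 rose and 0 fell (median 0.66), or 4 without knockout mouse 1 or control mouse 1 and 2 without knockout mouse 2. Ifi205 of the p200 family read 10.99, 11.60 and 11.29 against 6.92, 6.44 and 6.57 (4.65 ± 0.62, adjusted p = 4.49e-06). Its neighbours in that family, Ifi204 and Mndal, rose by 2.22 and 1.57, calls that were not held without knockout mouse 2 (adjusted p = 0.0504 and 0.06).

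**Figure D4:**
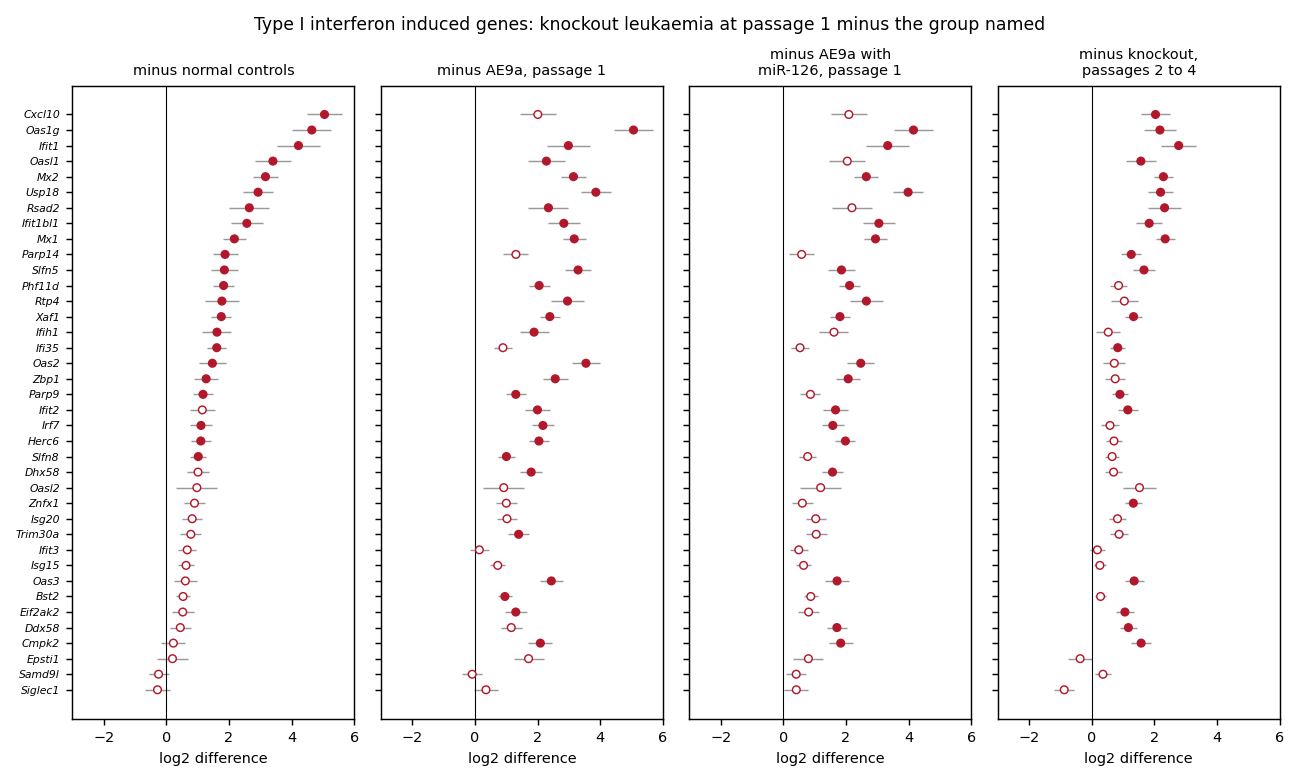
Difference in log2 expression ± SE of the 38 type I interferon induced genes between knockout leukaemias of passage 1 and normal controls, AE9a leukaemias of passage 1, AE9a leukaemias with added miR-126 of passage 1, and the knockout leukaemias of passages 2 to 4, with filled points past the threshold. The 4 comparisons share the 3 knockout arrays, and 22, 26, 19 and 20 of the 38 genes rose in them.

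Antigen presentation did not move as a block. Of 16 genes of MHC class I and antigen processing, Cd274 rose and Tap2 fell (median 0.07). Cd274, which encodes the checkpoint ligand PD-L1, read 9.70, 9.37 and 9.82 in knockout mice, against 6.49, 6.20 and 6.77 in controls (3.14 ± 0.54, adjusted p = 0.000151). B2m, the light chain of class I molecules, read 12.86, 13.01 and 12.79 against 12.75, 12.68 and 12.67 and did not pass (adjusted p = 0.391). The fall of Tap2, a subunit of the peptide transporter, was not held without each array. Of 15 genes of MHC class II and dendritic cells 0 rose and 4 fell, or 2 without knockout mouse 3 or control mouse 1. H2-Ob fell by 2.20 ± 0.33 and H2-DMb2 by 2.49 ± 0.45, both of which act in peptide loading, and the calls of H2-Oa and H2-DMb1 were not held without each array.

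Among 24 chemokine ligands 7 rose and 1 fell (median 0.67). Cxcl16, a membrane-bound chemokine and scavenger receptor, read 10.79, 10.73 and 10.87 in knockout mice, against 6.52, 6.30 and 6.73 in controls (4.28 ± 0.48, adjusted p = 3.53e-07). Cxcl11, which shares the receptor CXCR3 with Cxcl10, read 6.63 to 8.55 against 4.32 to 5.48 (2.63 ± 0.33, adjusted p = 1.92e-06). The CCR4 ligands Ccl17 and Ccl22 rose by 2.29 ± 0.36 and 1.61 ± 0.26. Pf4, a platelet chemokine, fell, a call not held without each array. Of 16 chemokine receptors 0 rose, and the 2 that fell, Ccr6 and Cxcr5, were not held without each array.

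Of 26 genes of interleukin 1, TNF and NF-κB, 13 rose and 0 fell, with a median of 1.11 and a count of 10 to 12 when 1 array was left out. Il1a read 9.70, 9.06 and 10.97 in knockout mice, against 4.36, 4.51 and 4.50 in controls (5.46 ± 0.83, adjusted p = 3.14e-05). The receptor Il1r1 read 8.50, 8.93 and 8.71 against 5.86, 5.37 and 5.34 (3.19 ± 0.37, adjusted p = 4.8e-07). The feedback inhibitors of NF-κB rose with them: Nfkbia, which encodes IκBα, by 1.68 ± 0.24, and Tnfaip3, which encodes A20, by 1.95 ± 0.33. Nfkb2, the precursor of the p52 subunit, rose by 1.94 ± 0.31, and in none of these 5 genes did the groups overlap.

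Of 17 Toll-like receptors and adaptors 5 rose and 1 fell (median 0.35), and 3 rose when any 1 mouse other than control mouse 3 was left out. Tlr4, the receptor for lipopolysaccharide, rose by 1.92 ± 0.26 (adjusted p = 7.26e-06) and its coreceptor Cd14 by 3.18 ± 0.54 (adjusted p = 0.000143). Cd14 read 10.51, 10.04 and 11.02 in knockout mice, against 6.76, 7.98 and 7.27 in controls. Tlr5, the flagellin receptor, fell by 1.32 ± 0.24 (adjusted p = 0.000354). Tlr2 and Ticam1 rose without holding in each fit.

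Extracellular proteases and matrix genes moved in both directions, with 12 of 28 higher and 4 lower and a median of 1.06. The lower ones numbered 2 without knockout mouse 1, 0 without knockout mouse 2 and 1 without control mouse 1. Beside Mmp13 and Serpinb8, the stromelysin Mmp10 read 6.84, 8.01 and 6.17 in knockout leukaemias, against 4.67, 4.61 and 4.47 in controls (2.42 ± 0.26, adjusted p = 1.62e-07). Timp1, an inhibitor of such proteases, read 7.95, 7.50 and 7.80 against 4.66, 4.72 and 4.92 (2.98 ± 0.44, adjusted p = 2.11e-05). Ecm1, a secreted matrix protein, read 9.66, 9.21 and 8.96 against 6.33, 6.74 and 7.14 (2.54 ± 0.40, adjusted p = 4.56e-05). All of these lay apart from every control. Mmp9, stored in neutrophil granules, was among the 4 that fell, and so moved the opposite way from Mmp13 and Mmp10.

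Mononuclear phagocyte genes were mixed. Of 24 monocyte genes 4 rose and 1 fell (median 0.10). Vcan, the proteoglycan versican, read 10.75, 9.50 and 10.38 in knockout mice, against 6.34, 7.30 and 8.13 in controls (2.95 ± 0.54, adjusted p = 0.000359). Ms4a6d rose by 2.51 ± 0.52, the coagulation factor gene F10 by 1.79 ± 0.25 and S100a4 by 1.72 ± 0.38. Ace, a peptidase of non-classical monocytes, read 6.35, 6.24 and 6.34 against 8.21, 7.36 and 8.49 and fell by 1.71 ± 0.50, a call not held without each array (limma adjusted p up to 0.111).

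Of 30 macrophage genes 10 rose and 2 fell (median 0.27), and the number that rose was 5 to 8 when 1 array was left out, with 5 without control mouse 2 and 6 without knockout mouse 1, knockout mouse 2 or control mouse 1. Fcgr1, the high-affinity IgG receptor CD64, read 10.03, 10.34 and 8.82 in knockout leukaemias, against 6.42, 7.09 and 6.82 in controls (2.95 ± 0.45, adjusted p = 3.27e-05). Maf, a macrophage transcription factor, rose by 1.43 ± 0.32, while Vcam1 and Slc40a1, both of red-pulp and marrow macrophages, fell by 2.18 ± 0.28 and 3.79 ± 0.75. Of 12 Fc receptors 3 rose and 3 fell: Fcgr1, Fcgr2b and Fcrlb rose, while Fcer2a (CD23) and Fcrla, both of B cells, fell by 2.91 ± 0.30 and 2.22 ± 0.27. Of 23 lysosome and iron genes 6 rose and 1 fell (median 0.21), with 2 higher without knockout mouse 1 and 3 without control mouse 2. Those that rose included the cholesterol exporter Npc1 (1.72 ± 0.44) and cathepsin Z, Ctsz (0.87 ± 0.21).

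Granulocyte genes were described at a late and an early stage. Of 24 neutrophil granule genes 12 fell and 0 rose (median -1.19). S100a9, a subunit of calprotectin, read 8.47, 7.91 and 10.26 in knockout mice, against 11.03, 11.49 and 10.96 in controls (-2.28 ± 0.55, adjusted p = 0.0056). Ltf, lactoferrin, read 9.40, 8.91 and 11.27 against 12.28, 12.41 and 12.08 (-2.40 ± 0.67, adjusted p = 0.0171). Neither call was held without each array. The count depended on single mice: it was 14 without knockout mouse 3 (median -2.07), 1 without knockout mouse 2, 4 without knockout mouse 1, 3 without control mouse 1 and 4 without control mouse 2. Of 17 neutrophil receptors 7 fell (median -1.29), or 2 without knockout mouse 1 or 2, 3 without control mouse 1 or 2, and 9 without knockout mouse 3. Clec4e rose, a call not held without each array. Mgam fell by 3.15 ± 0.67 (adjusted p = 0.00164).

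The earlier stage was more even between mice. Of 16 primary granule genes, which promyelocytes express, 8 fell and 0 rose (median -1.78), with 7 to 8 when 1 array was left out. Nkg7 read 7.15, 7.11 and 6.99 in knockout mice, against 10.49, 10.10 and 9.83 in controls (-3.06 ± 0.41, adjusted p = 5.3e-06). Prss57, a serine protease of these granules, read 6.11, 5.75 and 5.47 against 8.88, 8.47 and 8.31 (-2.77 ± 0.38, adjusted p = 5.96e-06). Ctsg, cathepsin G, read 8.55, 8.39 and 8.80 against 11.73, 11.46 and 11.13 (-2.86 ± 0.58, adjusted p = 0.000993). Cebpe, the transcription factor of late granulocyte development, fell by 2.78 ± 0.60, and every knockout mouse lay below every control for these 4 genes.

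Lymphoid genes were lower. Of 24 B cell genes 16 fell and 0 rose (median -2.12), with 15 to 16 when 1 array was left out. Cd22, a B cell inhibitory receptor, fell by 3.03 ± 0.30, Fcer2a by 2.91 ± 0.30, the complement receptor Cr2 by 2.31 ± 0.27 and Pax5, the factor that commits cells to the B lineage, by 1.66 ± 0.22, with adjusted p-values from 6.45e-08 to 4.57e-06. Pax5 read 5.42, 5.23 and 5.56 in knockout mice, against 7.56, 7.26 and 6.37 in controls. Of 11 plasmacytoid dendritic cell genes 3 fell and 0 rose: Ly6d (-2.68 ± 0.22, adjusted p = 1.18e-09), Spib and Siglech.

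Plasma cell genes split, with 3 of 10 higher and 3 lower. Prdm1, which encodes BLIMP-1, read 8.69, 8.98 and 9.50 in knockout leukaemias, against 6.69, 6.67 and 6.70 in controls (2.37 ± 0.33, adjusted p = 1.09e-05), and the syndecan Sdc1 rose by 1.42 ± 0.21. The immunoglobulin joining chain Jchain read 7.23, 7.64 and 6.66 against 10.56, 10.37 and 9.43 (-2.94 ± 0.48, adjusted p = 8.51e-05), and Mzb1 fell by 1.52 ± 0.22. Of 20 T cell genes 11 fell and 0 rose (median -0.78), or 7 without knockout mouse 1, 6 without knockout mouse 2 and 4 without control mouse 1. Lef1 fell by 1.62 ± 0.22 and Cd7 by 2.61 ± 0.49. Of 20 NK and cytotoxic genes 8 fell and 0 rose (median -0.44), or 5 without knockout mouse 1 or control mouse 1, including the receptors Klrk1 (-1.45 ± 0.27) and Klrd1 (-1.31 ± 0.22).

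Genes of other blood lineages mostly missed the threshold. Among the 22 genes of mast cells, basophils and eosinophils, 7 fell and 2 rose (median -0.79). The eosinophil genes Prg2, Epx and Il5ra fell by 3.02 ± 0.27, 2.40 ± 0.31 and 1.39 ± 0.18. The mast cell protease Mcpt1 rose against normal controls, by 3.87 to 4.85 across the 6 fits that left out 1 array. Mcpt8 and Prss34 fell, as given above, and Cpa3, Ms4a2 and Fcer1a did not pass. Of 22 erythroid genes 6 fell and 0 rose (median -0.79). Aqp1, a water channel of red cells, read 5.50, 5.55 and 5.54 in knockout mice, against 8.91, 8.34 and 8.25 in controls (-2.97 ± 0.20, adjusted p = 5.77e-11). Slc4a1 (band 3), Rhd and the transferrin receptor Tfrc fell by 1.34 ± 0.28, 1.98 ± 0.42 and 1.88 ± 0.36, whereas Car1, the carbonic anhydrase of red cells, did not pass (-0.80 ± 0.69, adjusted p = 0.557). Of 17 megakaryocyte and platelet genes 5 fell (3 without control mouse 1) and 2 rose. Itgb3, Gp9 and Clec1b fell by 2.20, 1.16 and 1.15, and Plek, pleckstrin, which other leukocytes also express, rose by 1.28 ± 0.29. Of 11 heme synthesis genes Slc11a2 rose and Ppox fell.

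Stem and progenitor genes were lower in 11 of 33 and higher in 1 (median -0.32). Myb, a progenitor transcription factor, read 6.86, 7.69 and 8.19 in knockout mice, against 10.47, 9.95 and 9.42 in controls (-2.37 ± 0.41, adjusted p = 0.000164). Cd34 fell by 2.38 ± 0.51, Prom1 (CD133) by 2.99 ± 0.49 and Hoxa9 by 0.94 ± 0.18. Procr, the protein C receptor of stem cells, read 7.14, 7.91 and 7.26 against 5.56, 5.89 and 5.88 (1.66 ± 0.26, adjusted p = 4.4e-05).

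Of 26 myeloid transcription factors 5 rose and 5 fell, with 3 lower without knockout mouse 1 and 2 without control mouse 2. Bhlhe40 read 10.90, 10.95 and 10.86 in knockout mice, against 8.09, 8.04 and 8.42 in controls (2.72 ± 0.32, adjusted p = 8.59e-07). Egr2 rose by 2.22 ± 0.44 and Hif1a, the oxygen-regulated factor, by 1.18 ± 0.22, while Gfi1, which drives granulocyte formation, fell by 1.58 ± 0.34. Of 17 genes reported as markers of t(8;21) leukaemia 2 rose and 3 fell (median -0.01). Cav1, caveolin 1, rose by 2.92 ± 0.31 (adjusted p = 1.64e-07) and Trh without holding in each fit, while Ncam1, Il5ra and Plcg1 fell. In human t(8;21) leukaemia CD56, the product of NCAM1, is often present, and in these mice Ncam1 was lower in the leukaemias.

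Of 19 genes reported elsewhere as targets of miR-126, 5 rose and 1 fell, with a median of 0.44 beside 0.02 for all genes. Errfi1, a feedback inhibitor of the EGF receptor, read 10.32, 10.57 and 10.33 in knockout leukaemias, against 5.70, 6.03 and 6.29 in controls (4.40 ± 0.52, adjusted p = 7.43e-07). Adam9, a membrane metalloprotease, read 10.21, 9.92 and 9.85 against 8.04, 8.11 and 8.22 (1.87 ± 0.29, adjusted p = 4.91e-05). Spred1, which restrains RAS signalling, read 9.37, 8.81 and 9.61 against 6.77, 6.65 and 7.32 (2.35 ± 0.37, adjusted p = 5.11e-05). Tsc1 and Slc7a5 rose by 0.86 and 0.85, which was not held without each array. Vcam1 fell by 2.18 ± 0.28, and 3 rose without knockout mouse 1. The others did not pass: Pik3r2 differed by -0.24, Crk 0.59, Dnmt1 -0.72, Fzd7 0.49, Plk2 0.62, Lrp6 0.02, Irs1 -0.56, Vegfa -1.18, Zzef1 0.28, Tom1 0.37, Ptpn9 0.52, Ptpn7 -0.61 and Camsap1 0.44. Since the controls lack AE9a, this comparison does not isolate the missing microRNA.

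Of 19 ERK feedback genes 5 rose and 0 fell (median 0.24): Errfi1, Spred1, the stress gene Ier3 (2.17 ± 0.31), the ERK phosphatase Dusp5 (1.73 ± 0.31) and Dusp16, which was not held without each array. Of 21 immediate early genes 2 rose and 3 fell (median -0.03). Fos read 5.89, 6.85 and 6.76 in knockout mice, against 9.25, 9.40 and 8.80 in controls (-2.65 ± 0.52, adjusted p = 0.000747), Btg2 fell by 1.76 ± 0.35, and Ier2 fell without holding in each fit.

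Growth and survival genes showed a strong rise of the cell cycle inhibitor Cdkn1a, which encodes p21: 11.32, 11.39 and 11.32 in knockout leukaemias, against 7.15, 7.54 and 7.87 in controls (3.82 ± 0.31, 14.1-fold, adjusted p = 1.18e-09). Of 18 p53 target genes 4 rose and 1 fell (median 0.28), with 2 higher without knockout mouse 3 or control mouse 2. Mdm2, the p53 ubiquitin ligase, rose by 1.43 ± 0.33, and Zmat3 and Phlda3 were not held without each array. Of 22 apoptosis regulators 2 rose and 1 fell, with the rise of Bcl2a1a not held without each array. Bcl2l11, which encodes the pro-death protein BIM, read 10.29, 10.29 and 10.44 against 7.59, 8.28 and 7.73 (2.47 ± 0.34, adjusted p = 8.38e-06), and the survival gene Bcl2 read 6.22, 6.37 and 6.73 against 8.75, 8.26 and 8.53 (-2.07 ± 0.36, adjusted p = 0.000181).

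Proliferation genes leaned lower, with few past the threshold. Of 33 cell cycle genes 4 fell and 1, Cdk6, rose (median -0.72). The number that fell was 2 without knockout mouse 1, and 1 without knockout mouse 3, control mouse 1 or control mouse 2. Of these 5 the calls of Cdk6, Cdc25a, E2f2 and Ccne1 were not held without each array. Ccnd3, a D-type cyclin, read 7.45, 7.79 and 8.41 in knockout mice, against 9.53, 9.51 and 9.39 in controls (-1.59 ± 0.29, adjusted p = 0.000314). Of 28 DNA replication genes 5 fell and 0 rose (median -0.85), or 1 without knockout mouse 1, 2 without knockout mouse 3 or control mouse 1 and 3 without control mouse 2. Among them, thymidine kinase Tk1 fell by 1.58 ± 0.25, while Dut, Cdc6, Mcm7 and Pole were not held without each array. Of 27 genes of MYC and ribosome biogenesis 3 fell (1 without knockout mouse 2, control mouse 1 or control mouse 2), Dkc1 by 1.51 ± 0.37 and, without holding in each fit, Wdr12 and Polr1a. Of 27 respiratory chain genes 1 fell, Sdha by 0.96 ± 0.24.

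Glycolysis and hypoxia genes numbered 3 higher and 5 lower of 21 (median -0.38), with 2 lower without knockout mouse 1 or control mouse 2 and 3 without knockout mouse 3 or control mouse 1. The glucose transporter Slc2a1 and Ndrg1 rose by 1.53 ± 0.23 and 1.56 ± 0.34, and the hypoxia-induced carbonic anhydrase Car9 fell by 1.21 ± 0.21. Of 19 cholesterol genes Abcg1, a sterol exporter, rose by 2.28 ± 0.47 and Hsd17b7 fell by 1.31 ± 0.30. Of 20 unfolded protein and heat shock genes 2 rose, Trib3 by 1.03 ± 0.24 and Xbp1, and 2 fell, Hspd1 and Hspe1, the last 3 not held without each array. Of 24 stroma and endothelium genes 1 fell, Cxcl12 by 1.49 ± 0.17. Among 13 housekeeping genes 1 fell, Sdha, and Gapdh read 12.08, 12.13 and 12.16 in knockout mice, against 11.92, 11.81 and 12.02 in controls (adjusted p = 0.287).

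The AE9a leukaemias of passage 1 carry the same fusion with miR-126 intact, so the second comparison asks what the knockout leukaemias show beyond AE9a. Here 463 genes passed (2.09%), 332 higher (1.50%) and 131 lower (0.591%). Quantile and loess normalization gave more even splits, 268 higher and 231 lower and 452 higher and 353 lower. The total fell to 132 without knockout mouse 2 and to 199 without AE9a mouse 1. Type I interferon induced genes were again higher, with 26 of 38 (median 2.00) and 0 lower, or 15 without knockout mouse 2. Oas1g averaged 9.29 ± 1.28 in knockout leukaemias and 4.22 ± 0.40 in AE9a leukaemias (SD, n = 3 each), a difference of 5.06 ± 0.62 (limma adjusted p = 1.12e-05). Slfn5 averaged 8.15 ± 0.27 and 4.86 ± 0.02 (3.29 ± 0.43, adjusted p = 2.71e-05).

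Some interferon genes that did not pass against normal controls passed here, and AE9a leukaemias held them lowest of the 3 groups. Cmpk2 averaged 9.65 ± 0.42 in knockout leukaemias, 7.56 ± 0.30 in AE9a leukaemias and 9.43 ± 0.19 in normal controls. Oas3 averaged 8.84 ± 0.61, 6.40 ± 0.36 and 8.24 ± 0.34 in the same order. The knockout arrays are shared between both comparisons.

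Outside the interferon list, Fcgr1 averaged 9.73 ± 0.80 in knockout leukaemias and 5.74 ± 0.16 in AE9a leukaemias (3.99 ± 0.45, adjusted p = 4.34e-06). With Oas1g, 3 other genes made up the 4 largest rises. The mast cell protease Mcpt1 averaged 7.54 ± 1.12 and 2.98 ± 0.24 (23.5-fold, adjusted p = 4.34e-06). Tph1 averaged 9.42 ± 0.51 and 4.87 ± 0.21 (23.4-fold, adjusted p = 0.000147), and Car1 averaged 9.18 ± 0.56 and 4.90 ± 0.16 (19.5-fold, adjusted p = 0.000504). Car1 in normal controls averaged 9.99 ± 0.70, so AE9a leukaemias were the low group for this gene.

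The 4 largest falls against AE9a were Ceacam10 (-3.29 ± 0.72, adjusted p = 0.0109), Mreg (-3.17 ± 0.49, adjusted p = 0.000324), the lectin receptor Clec4b2 (-3.09 ± 0.65, adjusted p = 0.00704) and the neutrophil granule protein Olfm4 (-3.05 ± 0.81, adjusted p = 0.0407). Without each array the calls of Ceacam10, Clec4b2 and Olfm4 were not held. Mreg, melanoregulin, averaged 5.66 ± 0.67 in knockout leukaemias, 8.83 ± 0.25 in AE9a leukaemias and 5.05 ± 0.31 in normal controls. Of 24 monocyte genes 7 rose against AE9a and 0 fell (median 1.01), including Ccr2, the chemokine receptor of inflammatory monocytes (2.16 ± 0.37, adjusted p = 0.000859). Of the 26 NF-κB genes 0 passed in either direction, of 24 neutrophil granule genes 5 fell, of 16 primary granule genes 0 passed and of 24 B cell genes 1 fell. In this comparison and those below, list counts other than that of interferon induced genes were not followed with 1 array left out.

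Among the miR-126 targets, Errfi1 differed from AE9a leukaemias by 0.88 (adjusted p = 0.57), Adam9 by 0.96 (adjusted p = 0.0843) and Spred1 by 1.35 (adjusted p = 0.047), and the Spred1 call was lost in all 6 fits that left out 1 of these arrays. Runx1t1 averaged 5.55 ± 0.13 in knockout leukaemias and 6.31 ± 0.13 in AE9a leukaemias (-0.76, adjusted p = 0.0345), also lost in all 6. The array does not say whether its Runx1t1 probes read the fusion transcript.

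Against AE9a leukaemias with added miR-126 at passage 1, the third comparison, 129 genes passed (0.582%), 96 higher (0.433%) and 33 lower (0.149%), with 55 without knockout mouse 2 and 61 without mouse 3 of the added-miR-126 group. The shared probe set of Mir126a and Egfl7 was lower by 5.38 ± 0.51 in the knockout leukaemias than with added miR-126 (limma adjusted p = 3.41e-07 over all probe sets). From AE9a leukaemias with miR-126 intact it differed by 0.10 ± 0.51 (adjusted p = 0.99), so this difference does not check the knockout. Of 38 interferon induced genes 19 rose and 0 fell (median 1.69), 8 of them without knockout mouse 2. The 4 largest rises were Tph1 (4.71, adjusted p = 0.000154), Car1 (4.51, adjusted p = 0.000429), Mcpt1 (4.29, adjusted p = 1.45e-05) and Oas1g (4.15, adjusted p = 0.000323), each held without each array.

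The 4 largest falls in that comparison were Tnfsf9, Ncam1, Nfkbiz and Selp. Tnfsf9, the ligand of the costimulator 4-1BB, averaged 6.59 ± 0.21 in knockout leukaemias and 8.98 ± 0.97 with added miR-126 (-2.40 ± 0.45, adjusted p = 0.00453). Ncam1 fell by 2.10 ± 0.44 (adjusted p = 0.0131), Nfkbiz, an IκB-like regulator, by 1.90 ± 0.43 (adjusted p = 0.0241) and Selp, P-selectin, by 1.82 ± 0.37 (adjusted p = 0.00986). Leaving out 1 array ended the call in at least 1 fit for each of the 4. Of the 26 NF-κB genes 2 fell and 0 rose (median -0.60), and of the 24 neutrophil granule genes 0 passed. Errfi1 (-0.16) and Spred1 (0.39) did not pass, with adjusted p-values of 1.0.

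The last comparison set passage 1 against the mean of the knockout leukaemias of passages 2, 3 and 4, which asks how the first leukaemias differed from those grown on in mice. At passage 1, 1131 genes differed (5.10%), 824 higher (3.72%) and 307 lower (1.38%). The split was 802 higher and 549 lower with quantile normalization and 1020 higher and 777 lower with loess. The total was 511 without knockout mouse 2 of passage 1 and 510 without mouse 1. Mmp13 averaged 9.77 ± 0.17 at passage 1 (SD, n = 3), and over the 9 later mice it had a lowest value of 4.12, a median of 4.58 and a highest of 9.34 (4.64 ± 0.59, limma adjusted p = 6.65e-06). Flrt3 averaged 8.61 ± 0.12, against 3.51, 4.29 and 7.53 in the same terms (3.92 ± 0.50, adjusted p = 7.37e-06). Pgf (3.92 ± 0.50) and Gprc5a (3.65 ± 0.54) completed the 4 largest rises. For Mmp13, 1 later mouse approached passage 1 and the median did not.

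The 4 largest falls were Fos, Nr4a1, Fosb and Klf2, of which the first 3 stand on the immediate early list. Fos averaged 6.50 ± 0.53 at passage 1, and later mice had a lowest value of 8.23, a median of 10.05 and a highest of 10.35 (-3.36 ± 0.43, adjusted p = 7.18e-06). Nr4a1, an orphan nuclear receptor, averaged 8.10 ± 0.40, against 8.57, 11.38 and 11.79 (-2.82 ± 0.45, adjusted p = 0.000138). Fosb fell by 2.72 ± 0.35 and Klf2 by 2.34 ± 0.37. Of 21 immediate early genes 10 were lower at passage 1 and 0 higher (median -0.80). Ace averaged 6.31 ± 0.06 at passage 1, then 5.81 ± 0.40, 10.64 ± 0.52 and 10.50 ± 0.56 at passages 2, 3 and 4.

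Of the 38 interferon induced genes 20 were higher at passage 1 and 0 lower (median 1.05), or 7 without knockout mouse 2. The passages were not in a steady order. Oas1g averaged 9.29 ± 1.28, 5.56 ± 0.68, 8.38 ± 0.39 and 7.40 ± 0.51 at passages 1 to 4, and Usp18 averaged 10.62 ± 0.53, 7.13 ± 0.75, 9.65 ± 0.59 and 8.49 ± 0.62. Both were lowest at passage 2. Car1 averaged 9.18 ± 0.56, 10.38 ± 0.62, 10.89 ± 0.15 and 11.23 ± 0.10, and Tph1 averaged 9.42 ± 0.51, 10.39 ± 0.91, 6.94 ± 1.15 and 5.86 ± 0.95. Of 28 protease and matrix genes 9 were higher at passage 1 and 0 lower, of 26 NF-κB genes 8 were higher and 1 lower, and of 24 neutrophil granule genes 1 was higher.

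**Figure D5:**
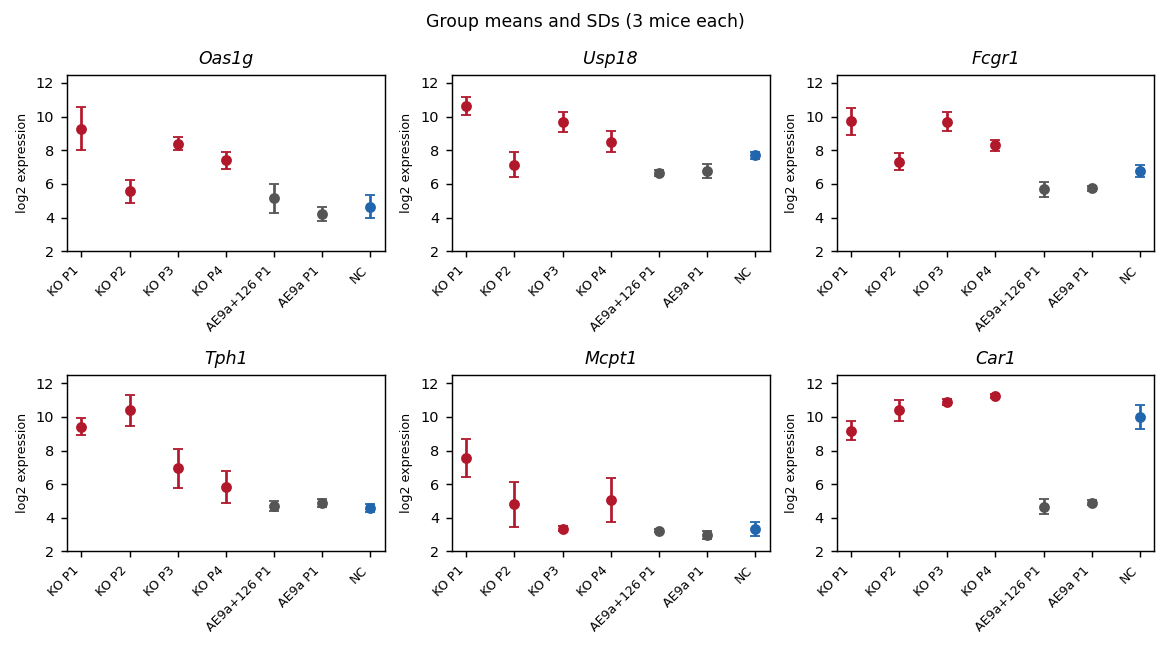
Mean ± SD (n = 3 mice) of log2 expression of Oas1g, Usp18, Fcgr1, Tph1, Mcpt1 and Car1 in knockout leukaemias of passages 1 to 4, then AE9a leukaemias with added miR-126 and AE9a leukaemias of passage 1 and normal controls; the vertical axes share one range that does not start at 0. The knockout leukaemias of passage 1 lie above both other leukaemia groups of passage 1 for each of the 6 genes.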

How the data were processed

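Each of the 39 mice gave 1 array, a 1-colour Affymetrix mouse gene array hybridised with RNA of sorted donor-derived marrow cells. Used here are the authors' deposited log2 values for 27037 probe sets, made with RMA and Partek 6.0 per the submitters' processing notes. RMA brings the probe signals of all arrays to one distribution and then summarises each probe set, so a general shift of all genes cannot be seen. The deposited probe set values still differed in spread, with an SD of 1.43 to 2.08 over the 39 arrays. The number of arrays limits the precision, and the median standard error of a difference between 2 groups was 0.222.

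Groups came from the array titles. In the platform annotation 23521 probe sets had 1 symbol, 1814 had several and 1702 had no symbol; only the first kind entered the gene tests, and others are given as probe sets where named. Where a gene had several probe sets (1082 genes), the brightest stood for it, and 22180 genes were tested.

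A linear model of the 13 group means was fitted to all 39 arrays with limma 3.58.1 (R 4.3.3) and tested by empirical Bayes, leaving 26 residual degrees of freedom. The 4 differences were the knockout leukaemias of passage 1 minus normal controls, minus AE9a leukaemias and minus AE9a leukaemias with added miR-126 of passage 1, and minus the mean of knockout passages 2 to 4. P-values were adjusted by Benjamini-Hochberg over all 22180 genes within each difference, with a threshold of 0.05 and no minimum fold.

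The 48 gene lists, the members and the rule for named genes were chosen with earlier results of these data known. The rule took the 14 largest rises and falls against normal controls with no overlap between groups, passing over predicted genes, small RNAs, odorant, vomeronasal and taste receptors, immunoglobulin and T cell receptor segments and ribosomal pseudogenes. It also took up to 5 members of each list with the smallest adjusted p, and all members of the interferon induced, ligand, signalling and miR-126 target lists with Egfl7, Runx1, Runx1t1, Spred1, Errfi1 and Fzd7. The other 3 differences gave 4 rises and 4 falls each. The fit was also run on simulated data, in which each gene had independent noise of the same SD in every group. That run held no arrays of unequal spread and no mice that stood apart, so it does not cover these features of the real arrays. Alternatives were fits on fewer groups, a trended prior, the replicate number as a block, array weights, quantile and loess normalization, array spread as a covariate, dim genes left out, probe sets averaged, a 2-fold minimum and leaving out each array. Leaving out the arrays of low spread, and knockout array 3 with control array 1, was chosen after seeing the data.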

Additional observations from a re-analysis of the deposited data

Results flagged for a closer look

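The count of genes past the threshold stood out in the 3 comparisons of passage 1 knockout leukaemias with other leukaemias, because the test of the difference itself called genes between groups that share the fusion. These counts were 463 against AE9a leukaemias of passage 1, 129 against AE9a leukaemias with added miR-126 of passage 1, and 1131 against the knockout leukaemias of passages 2 to 4.

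Probe sets assigned to several genes were left out of the gene tests, and 13 of those with a listed gene are given here because they were higher in knockout leukaemias than in normal controls. Adjusted p-values here are limma's over all 27037 probe sets. Among antiviral genes, the probe set of Oas1a and Oas1g read 8.26, 8.75 and 7.67 in knockout mice, against 5.97, 6.23 and 6.65 in controls, a log2 difference of 1.94 (adjusted p = 0.000977). The probe set of Dtx3l and Parp9, which act together in interferon responses, differed by 1.16, and that of Irf5, an interferon regulatory factor, and Tnpo3 by 1.57.

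Of 8 shared probe sets of the interferon-induced GTPases, 5 were higher and 3 did not pass. That of Gbp2 and Gbp2b read 8.69, 9.87 and 8.46 in knockout mice, against 7.25, 6.81 and 6.72 in controls, a difference of 2.08 (adjusted p = 0.00271). The difference was 1.02 for Olfr56 and Ifi47, 2.05 for Tgtp2 and Tgtp1, and 1.09 and 1.05 for the pair of probe sets shared by Gvin1 and Gm4070. The other Tgtp2 and Tgtp1 probe set differed by 0.68 (adjusted p = 0.236), and those that Gvin1 and Gm4070 share with 2 further genes by 0.28 and 0.21 (adjusted p = 0.494 and 0.609). The Tgtp2 and Tgtp1 probe set that passed read 4.94, 7.65 and 5.42 in knockout mice, against 4.11, 4.55 and 3.20 in controls.

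The p200-family probe set of Ifi203, LOC100862473 and Ifi203-ps read 10.65, 10.86 and 10.23 in knockout mice, against 8.73, 7.85 and 8.30 in controls, a difference of 2.29. Zeb2, a transcription factor of monocytes, was covered by a probe set shared with Zeb2os (1.37) and by another shared with Mir5129 (1.84). The BCL2-family survival genes were covered by the probe set of Bcl2a1b and Bcl2a1a (2.02) and that of Bcl2a1d, Bcl2a1a and Bcl2a1b (2.17). These genes cannot be told apart by such probe sets.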

How the results depend on the processing

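No named gene that passed in the main fit or in an alternative had the opposite direction in the other. Changes of sign in genes that passed in neither fit were not counted. The balance of higher and lower genes against normal controls turned in 3 alternatives, as given above. With only the compared arrays in the fit, 3132 genes passed against normal controls. Of these, 2090 were among the 2393 of the main fit. Against normal controls the 2393 genes became 3791 with the passage 1 arrays alone, 6099 with array weights, 4232 with array spread as a covariate, 4189 without the 8 arrays of low spread, 1515 without knockout array 3 and control array 1, and 1473 at a 2-fold minimum, with 1518 to 1959 when 1 array was left out. Against AE9a leukaemias the 463 became 1399 with the compared arrays alone, 1270 with the passage 1 arrays, 3459 with weights, 805 with loess, 963 with the covariate and 1223 without low-spread arrays, with 132 to 547 when 1 was left out. Against added miR-126 the 129 became 318, 3696, 232 and 258 with passage 1 arrays, weights, the covariate and no low-spread arrays, with 55 to 133 when 1 was left out. With the compared arrays alone 178 passed against added miR-126, 102 higher and 76 lower, and 58 of them were among the 129. The same kind of fit kept 428 of the 463 against AE9a leukaemias and 873 of the 1131 against later passages. Against later passages the 1131 became 4385, 1797, 2009, 2043 and 607 with weights, loess, the covariate, no low-spread arrays and a 2-fold minimum, with 510 to 1336 when 1 was left out. The later-passage comparison with passage 1 arrays alone was not run, because it would hold no later mice.

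With 1 array left out, the interferon induced genes higher in knockout leukaemias numbered 14 to 25 against normal controls, 15 to 25 against AE9a, 8 to 20 against added miR-126 and 7 to 23 against later passages. Array weights gave 33 and 31 in the last pair of comparisons. Macrophage genes higher numbered 5 to 8, and 4 without knockout array 3 and control array 1. Neutrophil granule genes lower numbered 1 to 14, and 19 with weights. The NF-κB, protease, primary granule and B cell counts stayed at 10 to 12, 11 to 12, 7 to 8 and 15 to 16. The cause of these shifts was not tested, beyond fewer arrays or a stricter minimum.

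Replicate numbers did not pair the mice: deviations of same-numbered mice from their group means correlated at 0.103, -0.052 and 0.051. With the replicate number as a block the 4 totals were 2308, 407, 119 and 1071. The blocked list counts against normal controls were 21 interferon induced, 12 NF-κB, 12 protease, 9 macrophage, 12 neutrophil granule, 9 primary granule and 16 B cell genes, and the interferon counts of the other 3 comparisons were 25, 18 and 19. Of 317 named genes, 7 lost their call against normal controls under the block.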

Other observations

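Haemoglobin genes stood outside the gene tests, because their probe sets are shared between near-identical copies. The probe set of Hba-a2 and Hba-a1 with the higher signal read 9.20, 10.41 and 10.30 in knockout leukaemias of passage 1, against 11.52, 11.04 and 11.37 in normal controls (-1.34 ± 0.56, limma adjusted p = 0.141 over all probe sets). The knockout leukaemias exceeded AE9a leukaemias of passage 1 by 3.07 ± 0.56 (adjusted p = 0.00243) and AE9a leukaemias with added miR-126 by 3.27 ± 0.56 (adjusted p = 0.00212). A probe set shared by Hbb-b1, Hbb-b2 and Hbb-bs read 4.06, 3.71 and 3.52 in knockout mice, against 6.93, 5.41 and 5.58 in controls, and fell by 2.21 ± 0.50 (adjusted p = 0.00376). It differed from AE9a leukaemias by 0.31 ± 0.50 (adjusted p = 0.945) and lay near the bottom of the scale in knockout mice. The other probe sets shared by these Hbb genes did not pass against normal controls. They differed by -0.28 ± 0.33 and -0.13 ± 0.24 (limma adjusted p = 0.68 and 0.823). The other Hba-a2 and Hba-a1 probe set differed from AE9a leukaemias by 0.44 ± 0.29 (adjusted p = 0.678).

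Ferritin light chain, an iron store, was covered by 6 probe sets shared with its pseudogenes. The difference from normal controls ran from -0.42 to 1.72 among them, and 5 of the 6, of which 2 hold identical values, passed higher.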
